A study of Mus musculus with 7 samples.

Results

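Among the accessible regions of pancreatic epithelium, 10681 had a peak in untreated mice and at days 7 and 28 after caerulein but none at day 1. They were found by merging overlapping peaks of 4 ATAC-seq peak lists on chromosomes 1 to 19 and X into 223972 regions, of which they made up 4.77%, and keeping those present in every list but that of day 1. ATAC-seq reads open chromatin through the cuts of the Tn5 transposase. Epithelial cells were purified from digested pancreata of C57BL/6J wild-type mice that were untreated or had received caerulein, and were taken at day 1, 7 or 28 after it. The sources used here state neither the age of the mice nor whether pancreata were pooled. A further 3 samples of DCLK1-positive cells, from Dclk1-DTR-ZsGreen mice, were not analysed here. Each group is 1 library, so no value below has a replicate check and no p-value is given. The regions were chosen by the presence and absence of peaks in these same 4 lists, so their absence at day 1 is no finding. It means that no peak passed the caller's threshold, which does not show that the chromatin was closed.

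Caerulein is an analogue of the hormone cholecystokinin. In excess it overstimulates acinar cells, the cells that make and secrete digestive enzymes, and provokes an acute pancreatitis from which the tissue recovers. Injured acinar cells are known to turn down enzyme genes for a time and to take on features of duct cells. The acinar program is driven by the PTF1 complex, in which PTF1A and an E protein such as TCF12 bind an E-box (CANNTG) and RBPJL binds a nearby TC-rich element, together with BHLHA15 (MIST1), GATA4, GATA6 and the nuclear receptor NR5A2. An open region at a gene's start is its promoter, and open regions away from starts are often enhancers.

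The promoters of several enzyme genes lay in these regions, and 5 of them are printed here with that of Nr5a2 because the results below turn on them. Each sequence is the 250 bases before the annotated start, from RefSeq on GRCm38.p6, 5′ to 3′ on the gene's strand, with E-boxes (CANNTG, the same on both strands) in capitals. Cel encodes bile salt-dependent lipase (chr2:28563404-28563653, minus strand), Cpa1 carboxypeptidase A (chr6:30638968-30639217, plus), Ctrl a chymotrypsin-like protease (chr8:105933863-105934112, minus), Pnliprp1 a lipase-related protein (chr19:58728637-58728886, plus) and Rnase1 pancreatic ribonuclease (chr14:51146768-51147017, minus). Nr5a2 (chr1:136960449-136960698, minus) encodes an acinar regulator and had a start in such a region. All 6 windows lay wholly within a region without a day 1 peak.
Cel: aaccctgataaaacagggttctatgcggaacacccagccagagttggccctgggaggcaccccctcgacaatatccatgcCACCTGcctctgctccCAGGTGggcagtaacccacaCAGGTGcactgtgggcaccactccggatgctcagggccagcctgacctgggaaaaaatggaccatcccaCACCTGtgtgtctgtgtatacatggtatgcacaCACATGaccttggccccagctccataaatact
Cpa1: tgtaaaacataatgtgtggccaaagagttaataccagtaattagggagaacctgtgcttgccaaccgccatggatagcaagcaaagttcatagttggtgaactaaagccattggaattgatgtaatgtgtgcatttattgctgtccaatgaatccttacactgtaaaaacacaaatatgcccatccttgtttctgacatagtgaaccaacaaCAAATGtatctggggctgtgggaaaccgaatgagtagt
Ctrl: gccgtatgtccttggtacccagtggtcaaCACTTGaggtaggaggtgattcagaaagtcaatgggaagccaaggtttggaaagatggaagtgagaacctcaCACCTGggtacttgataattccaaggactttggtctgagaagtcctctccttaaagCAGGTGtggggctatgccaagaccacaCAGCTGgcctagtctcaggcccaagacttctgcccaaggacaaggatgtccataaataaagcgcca
Pnliprp1: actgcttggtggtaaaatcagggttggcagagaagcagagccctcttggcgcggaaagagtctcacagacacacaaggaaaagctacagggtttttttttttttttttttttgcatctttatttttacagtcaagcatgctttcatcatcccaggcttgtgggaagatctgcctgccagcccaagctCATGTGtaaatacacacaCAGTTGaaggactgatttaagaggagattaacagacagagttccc
Rnase1: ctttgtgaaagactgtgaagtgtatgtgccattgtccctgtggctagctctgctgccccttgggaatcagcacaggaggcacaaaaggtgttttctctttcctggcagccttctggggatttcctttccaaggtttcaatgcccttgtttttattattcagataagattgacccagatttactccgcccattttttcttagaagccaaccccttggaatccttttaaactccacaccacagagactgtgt
Nr5a2: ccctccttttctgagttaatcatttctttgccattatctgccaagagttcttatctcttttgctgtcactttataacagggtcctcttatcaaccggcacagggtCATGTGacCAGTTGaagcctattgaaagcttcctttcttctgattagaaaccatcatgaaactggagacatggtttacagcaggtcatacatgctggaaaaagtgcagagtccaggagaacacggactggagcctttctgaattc
For comparison, the same 250 bases of Xbp1 (chr11:5520391-5520640, plus), which encodes a regulator of the secretory apparatus, lay in a region present in all 4 lists, with a day 1 fold enrichment of 98.3.
Xbp1: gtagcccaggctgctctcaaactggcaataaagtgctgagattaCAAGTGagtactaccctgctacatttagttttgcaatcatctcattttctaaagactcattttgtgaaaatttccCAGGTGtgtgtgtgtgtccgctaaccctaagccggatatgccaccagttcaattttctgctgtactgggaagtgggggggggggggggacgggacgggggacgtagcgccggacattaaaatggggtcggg
Cel held 5 E-boxes, the nearest 32 bases before the start, Ctrl 4, Pnliprp1 and Nr5a2 2 each and Cpa1 1, at 38 bases. No E-box was in the Rnase1 window, where the GATA-type motif AGATAA stood 91 bases before the start. AGATAA was also in the Nr5a2 window, on the opposite strand 217 and 200 bases before the start, and the AP-1 motif TGANTCA stood 205 bases before that of Ctrl. A TTCCCAC element, of the TC-rich kind, was found on the opposite strand 21 bases before the Cpa1 start and 92 bases before that of Pnliprp1. CAAGGTCA, the motif of NR5A2, occurred once in the 6 windows, on the opposite strand 28 bases before the start of Cel. The Xbp1 window held 2 E-boxes. These 6 windows had 1 to 3 CG dinucleotides each, and that of Xbp1 8. These matches are descriptions of the letters and not shown binding sites.

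The promoters without a day 1 peak held an E-box more often, and fewer CG dinucleotides, than all promoters and than those in regions of all 4 lists. Neither trait was particular to them, since the 75 windows with a start in a region of the untreated and day 28 lists alone had an E-box in 80.0% (69.2 to 88.4), overlapping the share below, and a median of 4 CG. Of 21045 promoter windows of protein-coding genes (250 bases before to 50 after the start), 218, from 206 genes, had their start in one of these regions. An E-box was found in 195 of the 218 (89.4%, exact 95% interval 84.6 to 93.2), against 69.0% of all windows and 62.3% of the 12790 windows whose start lay in a region of all 4 lists. The E-box CAGCTG, a subset of CANNTG, stood in 23.9%, against 15.7% and 15.2%, and AGATAA in 14.2%, against 9.68% and 5.54%. In the 75 windows of the untreated and day 28 lists alone, CAGCTG stood in 17.3% and AGATAA in 26.7% (17.1 to 38.1), the latter a higher share with an interval that overlaps that of the promoters described (9.87 to 19.6). The TC-rich element TTCCCAC was found in 9.63%, against 6.07% and 6.17%, both within its interval (6.06 to 14.3). For CAAGGTCA the shares were 2.29% (0.749 to 5.27), 1.29% and 0.962%, with only 5 member windows. For the forkhead motif TGTTTAC they were 5.05%, 3.03% and 2.41%, and the interval of the first (2.55 to 8.85) held the share of all windows. The AP-1 motif TGANTCA was at 6.88%, 7.04% and 4.89%. The cyclic AMP response element TGACGTCA occurred in 1.38% (0.285 to 3.97), against 2.26% and 3.26%. The E-box CACGTG, also a subset of CANNTG, stood in 7.80% (4.61 to 12.2), 7.91% and 10.2%, and CCAAT in 34.9% (28.6 to 41.6), 38.5% and 37.4%. Both strands were searched. Base composition moved with these shares: the median window had 5 CG dinucleotides and 53.3% GC among the promoters in question, 13 and 56.7% over all, 21 and 62% in regions of all 4 lists, and 4 and 50.3% in those of the untreated and day 28 lists alone. Its part in the motif shares was not tested.

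The 4 libraries differed in depth and enrichment. The lists held 130149 to 164684 peaks, the most at day 1, which also had the lowest fold enrichment that was still called (2.36, against 2.47 in untreated, 2.95 at day 7 and 2.84 at day 28). Background pileups, which follow depth, were 5.07 and 5.35 for untreated and day 1, and 2.72 and 2.52 for days 7 and 28. Read totals are not given, and the part of depth, enrichment or threshold in the missing day 1 peaks was not tested. Of the 70583 regions with a peak in untreated, day 7 and day 28, 15.1% (10681, interval 14.9 to 15.4) lacked a day 1 peak. Counted in the same way, 12.5% (8586) lacked only the untreated peak, 7.93% (5157) only that of day 28 and 2.75% (1697) only that of day 7. Of the 117209 regions with an untreated peak, 9.11% were of the kind described here, and 9.92% (11629) had a peak at day 28 but at neither day 1 nor day 7. Among the 47630 untreated regions with no day 1 peak, 22.4% had peaks at both later times. In these bulk preparations, fewer acinar cells and less open chromatin per acinar cell cannot be told apart.

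**Figure D1:**
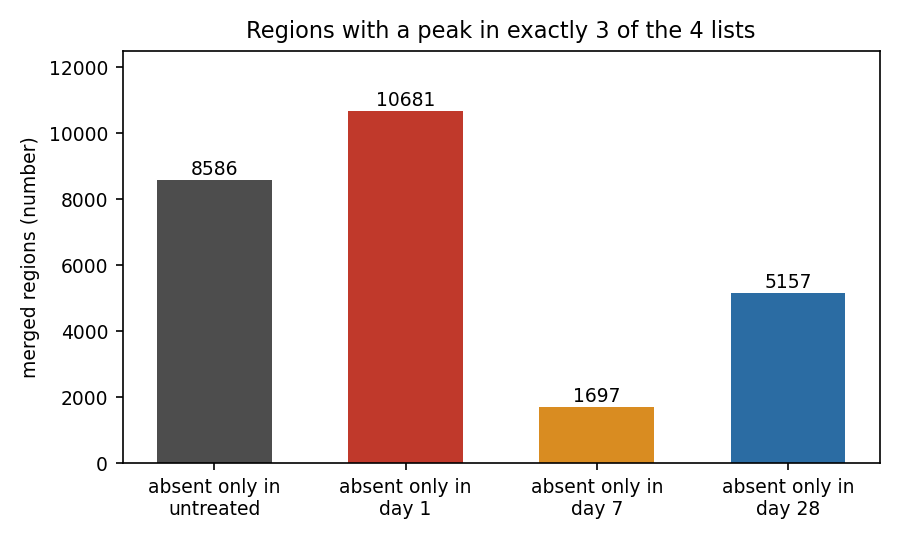
Number of merged regions (vertical axis) that had a peak in exactly 3 of the 4 lists, by the list that lacked it. The bars stand at 8586 for untreated, 10681 for day 1, 1697 for day 7 and 5157 for day 28.

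These regions were of middling strength in the untreated and day 28 lists and weak at day 7. All fold enrichments are the authors' values for the strongest peak of a region. They rank peaks within a list and are set side by side between lists without reading a change from them. In untreated epithelium the median was 6.76 (quartiles 4.45 and 11.5), at day 7 it was 5.37 (4.30 and 6.98) and at day 28 it was 8.52 (5.68 and 14.2). Regions of all 4 lists had medians of 8.40, 16.1 and 12.5 in the same lists, and 17.6 at day 1. Ranked within each list among the 70583 shared regions, the regions without a day 1 peak stood at a median percentile of 41.7 in untreated, 13.2 at day 7 and 37.0 at day 28. At day 7, 76.2% of them were among the lowest 25% of regions and 1 was among the highest 25%, whereas in untreated 32.3% were among the lowest 25% and 10.7% among the highest. Day 7 was the list of lowest percentile for 76.5% of these regions and for 32.1% of those in all 4 lists. The fold rank in untreated went with that at day 28 (Spearman rho 0.82 across the 10681 regions) more than with that at day 7 (0.40). In regions of all 4 lists these coefficients were 0.92 and 0.74, all across regions of the same libraries and as descriptions only.

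**Figure D2:**
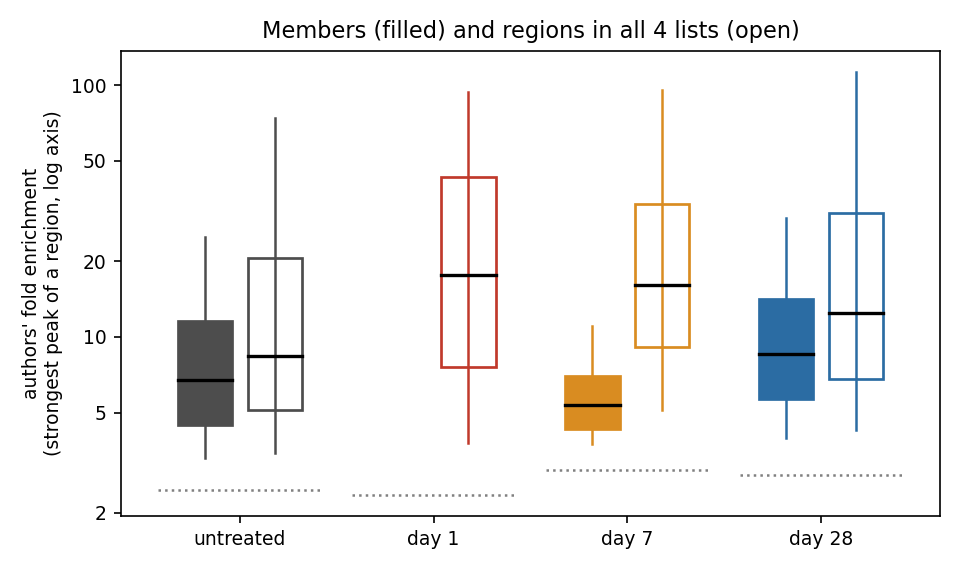
Authors' fold enrichment of the strongest peak of each region (log axis) by list, for the 10681 regions without a day 1 peak (filled) and the 59902 regions of all 4 lists (open). Boxes span the quartiles, black lines are medians, vertical lines run from the 5th to the 95th percentile and dotted lines mark the lowest fold called in each list. The filled day 7 box, with a median of 5.37, lies below the open one, with a median of 16.1.

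Regions absent from 1 of the later lists alone were weaker in untreated. Those missing only at day 7 had a median untreated fold of 4.12 and those missing only at day 28 one of 3.79, against 6.76 here. Those missing only in untreated had medians of 6.72 at day 7 and 4.54 at day 28, against 5.37 and 8.52 here. Of the regions described, 4631 (43.4%) had folds over 5 in all 3 lists and 574 (5.37%) over 10. The share lacking a day 1 peak hardly changed with the untreated fold up to 20, from 18.98% at folds of 2 to 4 to 17.5% at folds over 10 to 20. It was 10.1% over 20 to 40, and 1.56% above 40. When the peaks reappeared, their summits stood at nearly the same base: the untreated and day 28 summits lay a median of 36 bp apart, and 31 bp apart in regions of all 4 lists. The regions had a median width of 533 bp, against 996 bp for those in all 4 lists. Their day 7 peaks were narrower (median 279 bp) than those of untreated (436 bp) and day 28 (449 bp).

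Digestive enzyme genes were the list with the highest share of such regions. Of 99 regions that the untreated, day 7 and day 28 lists shared near the 28 genes of the list, 57 had no day 1 peak (57.6%, interval 47.2 to 67.5), against 15.1% of all shared regions. They lay at 23 of the 28 genes, and 17 of these 23 had one within 1 kb of an end of the gene. Their median folds were 13.2 in untreated, 6.45 at day 7 and 19.02 at day 28, above the medians of 6.76, 5.37 and 8.52 over all the regions described. A further 119 of the 248 untreated regions of these genes (48.0%, against 9.92% of all untreated regions) had a peak again only at day 28. In all, the list had 248 regions in untreated, and 56, 107 and 297 at days 1, 7 and 28. These were 0.212%, 0.0367%, 0.0895% and 0.274% of all regions of the library.

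The starts of 10 enzyme genes lay in regions without a day 1 peak. Of the 10506 shared regions that held a protein-coding start, 1.97% were of this kind. Of the 23 genes of the list with a start in the RefSeq table, 20 had it in an untreated region. Besides the 10, the starts of Pnlip, Amy1 and Gp2 were in regions present in untreated and day 28 only, and those of Pnliprp2, Cela1, Cela2a, Ctrb1, Prss2, Sycn and Cuzd1 in regions of all 4 lists. In the latter 7 the strongest day 1 peak had a fold of 3.31 (Prss2 and Cuzd1) to 29.9 (Cela1). The Cela1, Cela2a and Prss2 day 1 peaks did not cover the start itself. A peak covered the start of all 20 genes in untreated and day 28, of 14 at day 7 and of 4 at day 1 (Pnliprp2, Ctrb1, Sycn and Cuzd1).

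Of the 10 start regions that of Cel was the strongest in untreated, with folds of 42.7 in untreated, 20.4 at day 7 and 42.9 at day 28. These are folds of the strongest peak anywhere in the region, which need not be the peak over the start. Klk1, which encodes tissue kallikrein, had 38.6, 8.06 and 45.7. The trypsinogen gene Try4 had 27.4, 8.06 and 20.7. Within each of these genes the day 7 value was the lowest, and this was so in all 10. It was not particular to them, since the median fold of all the regions described was also lowest at day 7 (5.37, against 6.76 in untreated and 8.52 at day 28). By percentile within each list, another measure, day 7 was lowest for 76.5% of all the regions described. Cpa1 had folds of 25.2, 7.52 and 30.9 in untreated, at day 7 and at day 28. Rnase1 had 23.9, 8.06 and 19.9, and Ctrl 23.4, 10.2 and 29.2. Pnliprp1 came next with 20.9, 6.45 and 18.2, and then the elastase gene Cela3b with 20.6, 6.45 and 18.4. The phospholipase gene Pla2g1b had 17.1, 7.52 and 28.1. The region of the carboxypeptidase B gene Cpb1 was weakest, with 11.0, 3.76 and 11.1. For the peak over the start itself, Pnliprp1 had 9.89 in untreated, Klk1 17.9 at day 28 and Cpa1 6.45 at day 7. At Klk1, Pnliprp1 and Cpb1 the day 7 peak was in the region but did not cover the start. Trypsinogen, kallikrein and amylase genes have near-identical copies, and the sources used here do not say how reads shared between copies were placed.

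**Figure D3:**
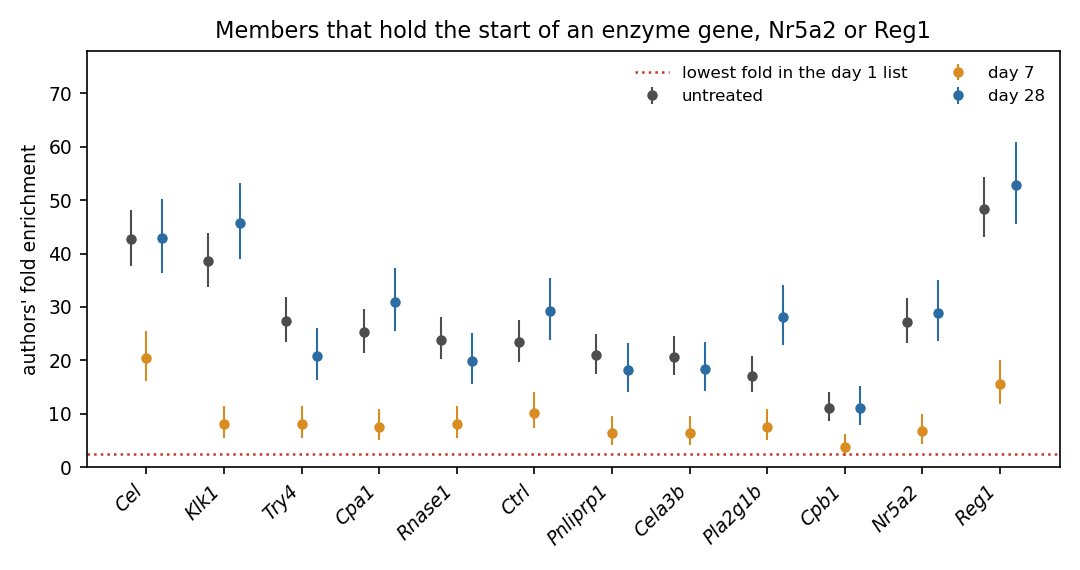
Authors' fold enrichment (vertical axis) of regions without a day 1 peak that hold the start of 10 digestive enzyme genes, Nr5a2 or Reg1, in untreated (grey), day 7 (orange) and day 28 (blue). Bars are exact 95% Poisson intervals of the pileup, which cover counting error only, and the dotted line is the lowest fold called at day 1 (2.36). In each gene the day 7 point is the lowest.

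Around some of these genes the day 1 list was nearly empty. Within 15 kb on either side of the Pnliprp1 start the untreated list had 15 peaks, day 1 had 0, day 7 had 3 and day 28 had 16. Around Rnase1 the numbers were 9, 0, 6 and 11. Around Cel they were 20, 3, 17 and 14, and the highest day 1 fold there was 3.47 against 42.7 in untreated. All 7 untreated regions linked to Rnase1 fell into 2 kinds, 3 with peaks at days 7 and 28 and 4 with a peak at day 28 alone among the later times, and the same numbers held for Cel and Try4. The pancreatic lipase gene Pnlip had 6 regions without a day 1 peak, the strongest with 42.02, 7.52 and 43.7 in untreated, at day 7 and at day 28. Spink1, whose product inhibits trypsin, had 5, with untreated folds from 3.95 to 12.5. The pair of Amy1 regions, at a gene for amylase, had untreated folds of 4.45 and 13.5.

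**Figure D4:**
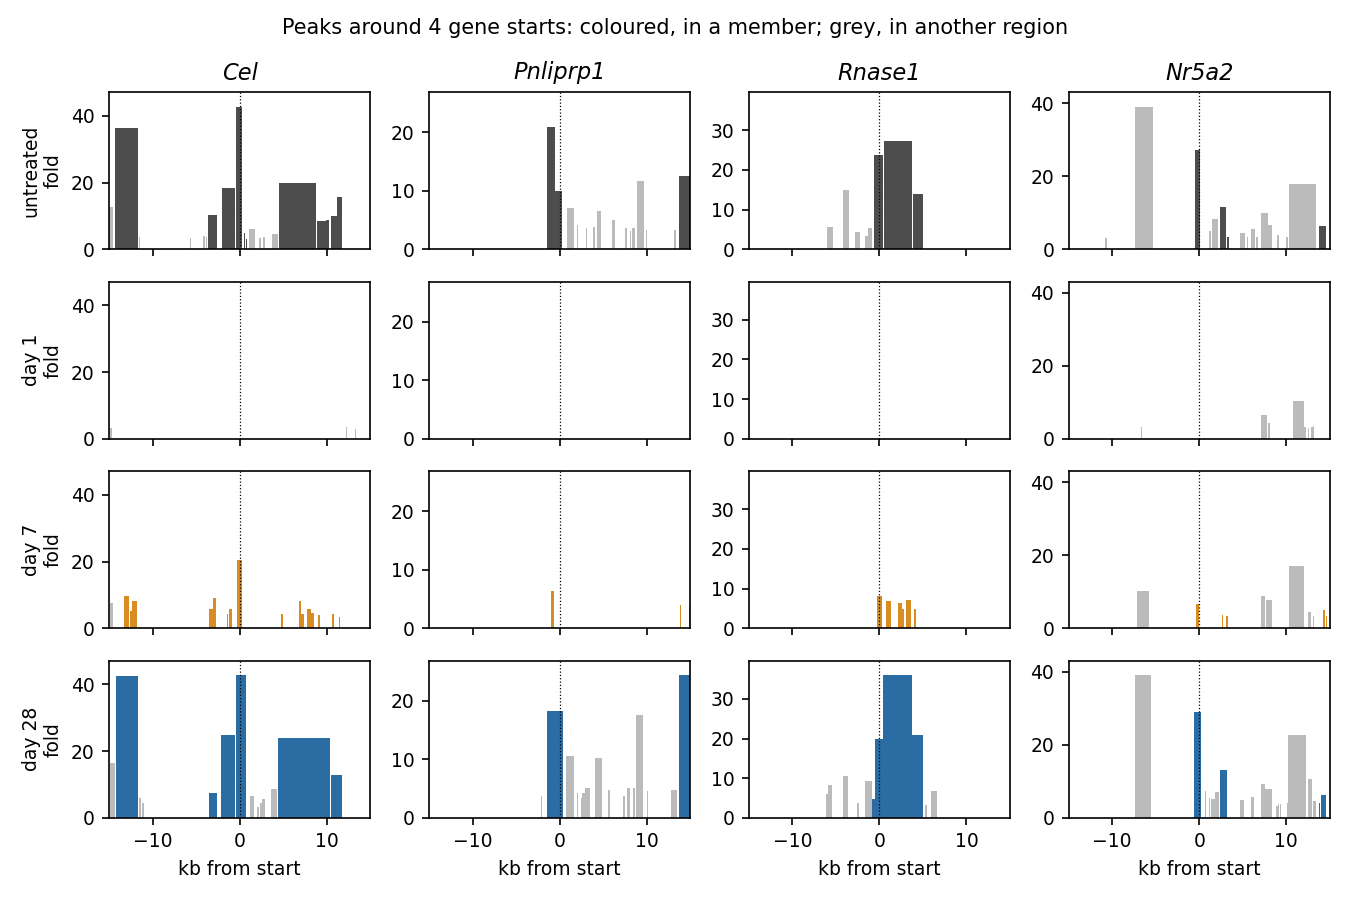
Peaks within 15 kb of the start of Cel, Pnliprp1, Rnase1 and Nr5a2 (columns) in each list (rows), by distance from the start in kb with transcription to the right, with height as the authors' fold enrichment on a common scale per gene. Coloured peaks belong to a region without a day 1 peak and grey ones to other regions. The day 1 rows hold 3 peaks at Cel, 0 at Pnliprp1, 0 at Rnase1 and 8 at Nr5a2.

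Acinar transcription factor genes followed with 78 of 219 shared regions (35.6%, interval 29.3 to 42.3), at 15 of 18 genes. Most of these regions lay away from starts. Of the 14 genes with a start in the table, 13 had one in a region of all 4 lists, including Ptf1a, Bhlha15, Rbpjl and Nr0b2. The day 1 folds of these named regions were, in that order, 7.41, 7.56, 14.3 and 5.04, while that of Xbp1 was 98.3. A day 1 peak covered a start of 12 of the 14 genes, all but Nr0b2 and Nr5a2. Nr5a2 alone had no start in a region of all 4 lists, and its start region had 27.2 in untreated, 6.72 at day 7 and 29.0 at day 28. Its day 7 peak was in the region but not over the start. Foxp1 had one of its 3 starts in such a region (11.4, 5.91 and 14.2) and the other two in regions of all 4 lists.

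Nr5a2 had 9 regions without a day 1 peak among 17 shared ones, and a region seen at day 1 only was not found there. The untreated folds of the 9 ran from 3.30 to 27.2 and their day 7 folds from 3.76 to 6.72. Gata4, which encodes a zinc-finger factor of the acinar lineage, had 10 of 18. Its strongest had 18.5 in untreated, 3.76 at day 7 and 19.9 at day 28. Ptf1a had 4 of 7, all outside the start region, and the strongest, with 21.6, 11.0 and 30.7 in untreated, at day 7 and at day 28, lay at chr2:19447684-19448868 beside the end of the gene. Foxp1, which encodes a forkhead factor and spans 597 kb, had 16 of 54, and 41 further regions there were seen at day 1 only. Regions seen at day 1 only made up 23.0% of all merged regions. Mecom, which spans 558 kb, had 13 of them and Tcf12 11, while Gata4 and Ptf1a had 0. Foxa2 had 7 of 14, Gata6 5 of 8, Xbp1 5 of 11 and Rbpjl 4 of 8. Other genes of the list had smaller shares without a day 1 peak: Mecom 6 of 22, Creb3l1 3 of 15, Tcf12 and Hnf4a 1 of 8 each, and Nfic 0 of 11.

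Protein folding genes and genes of amino acid supply were also above the share of all regions. Unfolded protein response and protein folding genes had 35 of 113 (31.0%, interval 22.6 to 40.4), at 14 of 24 genes. Amino acid genes had 25 of 82 (30.5%, 20.8 to 41.6), at 13 of 18 genes. The genes were uneven: Edem2 had 0 of 6, Pdia6 0 of 5, Pdia4 1 of 9, Got1 1 of 11 and Slc7a8 1 of 10. Those with the most follow. Eif2ak3, which encodes the stress kinase PERK, had 8 of 16. Its strongest had folds of 29.7 in untreated, 13.7 at day 7 and 43.1 at day 28. Ern1, encoding the sensor IRE1, had 6 of 12, the strongest with 30.2, 8.06 and 29.8. Sel1l, whose product serves the removal of misfolded proteins, had 4 of 11, and 21 of its 42 untreated regions returned only at day 28. The chaperone gene Hspa5, with fewer, had 2 of 4, both weak (untreated folds of 3.79 and 4.45). Slc3a1, for a subunit of a cystine and basic amino acid transporter, had 4 of 4, the strongest with 38.9, 12.1 and 44.3. The glutamine transporter gene Slc38a3 had 4 of 7 and Slc7a5 4 of 10.

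Pancreatic duct genes reached 31 of 118 (26.3%, interval 18.6 to 35.2), spread over 13 of 20 genes. Epcam, for an epithelial adhesion protein, had 5 of 11, with untreated folds of 3.95 to 11.5. The keratin genes Krt7, Krt18 and Krt19 had 3 each, of 5, 8 and 9, and Krt8 had 2 of 6. The list was uneven: Onecut1 had 1 of 11, Sox9 1 of 9, and Spp1 and Cldn4 0 of 5 each. At Krt7, one region had 4.45 in untreated, 16.1 at day 7 and 16.5 at day 28, and at Krt18 one had 5.11, 12.6 and 12.2. The day 7 fold was thus not the lowest of the 3 at these. Many of the duct regions had a day 1 peak nearby: 13 of the 31 had one no more than 1 kb away. With those not counted the share was 15.3%, against 11.4% of all shared regions.

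The other lists lay near 15.1% or below it. Pancreatic endocrine genes had 16.7%, secretory vesicle genes 16.1%, endothelial genes 15.9%, secretagogue receptor and calcium signalling genes 14.8%, tuft cell genes 14.8% and ubiquitous genes 14.3%. Immediate-early and AP-1 genes had 13.9%, skeletal muscle 13.3%, cell cycle 12.8%, circadian clock 11.7%, EGFR and MAPK 10.8%, leukocyte 9.09%, inflammatory and NF-kB 8.29%, fibroblast and stellate 5.10% and erythroid 4.55%. The intervals of the inflammatory and the fibroblast lists (4.71 to 13.3 and 1.68 to 11.5) lay below 15.1%, while the others in this paragraph held it. A day 1 peak within 1 kb stood beside 5 of the 9 endocrine and 5 of the 7 ubiquitous regions, 9 of the 18 circadian and 10 of the 28 secretagogue ones. With such regions not counted, these shares were 7.41%, 4.08%, 5.84% and 9.52%, against 11.4% of all shared regions. In the inflammatory list 7 of the 15 regions were at Lifr, the leukaemia inhibitory factor receptor gene, the strongest with 53.4 in untreated, 21.2 at day 7 and 52.8 at day 28. Among EGFR genes, Tgfa, for a ligand of the receptor, had 6 of 15. At the AP-1 gene Jun it was 4 of 8, and at Cdkn1a, for a cell cycle inhibitor, 3 of 6. These were among the highest of their lists. In the same lists Egfr had 1 of 25, Spred2 1 of 19, Fos 2 of 18, Atf3 0 of 9 and Ccnd3 2 of 14.

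**Figure D5:**
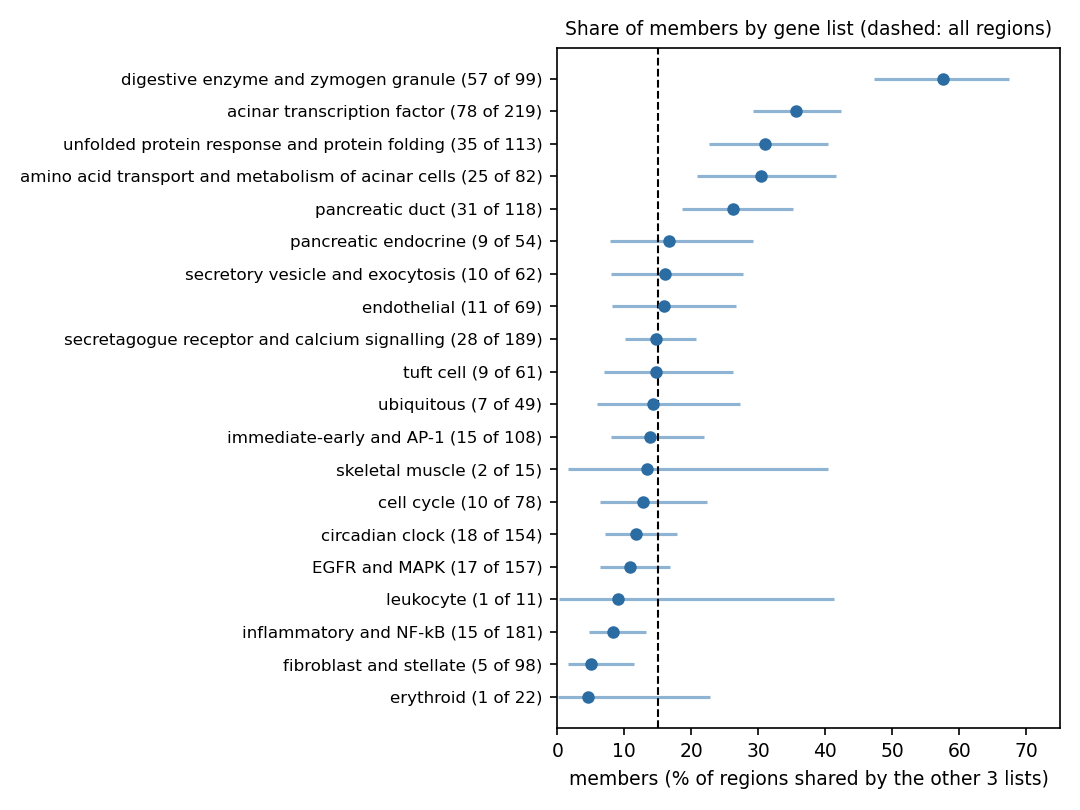
Share of regions without a day 1 peak among those shared by untreated, day 7 and day 28 (horizontal axis, %), for 20 gene lists, with exact binomial 95% intervals that cover counting error only. The dashed line is the 15.1% of all such regions. Digestive enzyme genes stand at 57.6% and fibroblast and stellate genes at 5.10%.

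Fibroblast genes had more regions at day 1 than at the other times. Counts are given with each list's share of all regions of its library, since the day 1 list is the longest. The 16 fibroblast and stellate genes had 118 regions in untreated, and 338, 213 and 131 at days 1, 7 and 28 (0.101%, 0.222%, 0.178% and 0.121%). Lum had none in untreated. The 17 leukocyte genes had 26, 38, 25 and 19 regions (0.0222%, 0.0249%, 0.0209% and 0.0175%), and Adgre1, Cd8a and Ms4a1 had none in any list. The 14 endothelial genes had 159, 150, 153 and 102 (0.136%, 0.0983%, 0.128% and 0.0942%). The 20 duct genes had 199, 177, 187 and 186, and their share was lowest at day 1 (0.170%, 0.116%, 0.156% and 0.172%). Their part in the loss of day 1 peaks at acinar genes was not tested.

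Few of the regions were promoters. A protein-coding start lay in 2.001% of them, against 17.8% of regions in all 4 lists, over chromosomes other than 18, for which starts were not used here. More than 10 kb from any such start were 73.1%, against 63.1%. Of all shared regions holding a start, 1.97% lacked a day 1 peak, against 14.9% of those up to 1 kb from one, 18.8% at 1 to 5 kb, 20.1% at 5 to 10 kb and 16.5% beyond 50 kb. By midpoint, 59.9% lay inside a protein-coding gene's span and 11.2% had no such gene within 50 kb, against 61.8% and 9.82% of regions in all 4 lists. Exons and introns could not be separated. The share by chromosome ran from 13.6% (chromosome 10) to 16.4% (chromosome 12), with 10.8% on X. Day 1 peaks were not far away: the nearest was a median of 2987 bp off, within 1 kb for 25.0% and within 10 kb for 80.3%.

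The strongest regions were ranked among those with a protein-coding gene within 50 kb. Of these, the 10 highest in untreated lay 3440 bp or more from a protein-coding start. By untreated fold the first was within Marchf10, a ubiquitin ligase gene (chr11:105374634-105376467), with 74.97 in untreated, 20.1 at day 7 and 84.6 at day 28. Next was one within Prkcb, for a protein kinase C (chr7:122388615-122391064), with 73.3, 27.1 and 80.0. Cracdl (chr1:37615732-37617481) followed with 68.9, 29.0 and 76.1, and its day 7 fold was the highest of all. These 3 were 9761 to 13459 bp from any day 1 peak. Others among the 10 highest in untreated were at Dpp9, Lcmt1, Upp2, Kctd2, Larp1, Lpl and Sel1l. A region outside this ranking (chr13:46018713-46021585) held starts of the non-coding RNA gene Gm34991. It had 58.5 in untreated, above the 56.7 of the Sel1l region, with 9.40 at day 7 and 54.5 at day 28. The Lpl region, within the lipoprotein lipase gene, had 59.0, 8.06 and 62.2. The one at Upp2, for a uridine phosphorylase, had 61.0, 14.2 and 90.8, the highest value at day 28. Of the 10 highest in untreated 7 were also among the 10 highest at day 28 and 2 among those at day 7. Highest at day 7 beside these were regions at Mark2, Ksr2, Hmcn2, Fam25c, Zmynd8, Trim50, Rbbp8 and Atp6v0a4.

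Promoters outside the lists were among the strongest too. Reg1, for a secreted acinar protein of the Reg family, had a start region of 48.4 in untreated, 15.6 at day 7 and 52.8 at day 28, and the nearest day 1 peak was 86252 bp away. The start region of Upp2 had 48.3, 7.25 and 50.5. Reg3d, of the same family as Reg1, had 33.9, 5.91 and 34.3, with 133665 bp to the nearest day 1 peak. Further starts in this class included Hsd17b13 (37.1, 13.2 and 41.4) and the water channel gene Aqp8 (24.1, 9.94 and 34.1). These examples were chosen after their values were seen.

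Most genes with such a region had a single one, and a few had many. A gene within 50 kb was found for 9487, at 5061 of the 15444 genes that had any shared region, and 2998 genes had 1. The next region of the same kind lay within 10 kb for 37.3% of them, against 46.9% for those of the untreated and day 28 lists alone and 73.8% for the more numerous regions of all 4 lists. The most were at Prdm16, for a zinc-finger regulator, with 19 of 37 shared regions, Prkce, for another protein kinase C, with 17 of 50, and Nav2, Farp1 and Foxp1 with 16 each. Long genes lead such a count: Prkce spans 490 kb and Nav2 651 kb. Tent5c, which spans 21.1 kb and encodes a poly(A) polymerase, had 14 of 21, and Dgkg, a diacylglycerol kinase gene, 15 of 22 with 0 regions seen at day 1 only. Others with more than 10 were Rap1gap2, Foxn3, Spata13, Baiap2l1, Rbm47, Casz1, Rere, Maml3, Arid1b, Shank2, Sgms2 and Rassf3. A further 12 genes had 10 each, Gata4 and Cacna1d among them. Among the 2111 genes with at least 8 shared regions, 90 had no day 1 peak in 50% or more of them and 483 had a day 1 peak in every one. Highest were the defensin gene Defb1 with 9 of 9, Rps6kc1 with 9 of 11 and the choline kinase gene Chka with 7 of 9. Hsd17b11 and Wars, the tryptophanyl-tRNA synthetase gene, had 6 of 8, followed by 0610040J01Rik, Dmbt1, Map3k21, Pde8b and Dgkg.

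The 5 longest runs of neighbouring regions, each less than 50 kb from the next, held 16 to 19. The longest (chr5:144125478-144365264) had 19 regions over 240 kb around Bhlha15 and Baiap2l1, among 40 shared ones, and 1 region there was seen at day 1 only. Its median folds were 9.06 in untreated, 5.10 at day 7 and 13.3 at day 28. A run of 17 lay at Vegfa on chromosome 17, among 56 shared ones. The other three had 16 each, at Gata4 and Ctsb on chromosome 14, within Farp1 on the same chromosome, and at Cela1 and Galnt6 on chromosome 15. Of all the regions, 29.0% stood in no run.

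MicroRNA genes were also searched. Of 1005 hairpins, 278 had a region shared by untreated, day 7 and day 28 within 1 kb, and 22 of these (7.91%) had one without a day 1 peak. This is a share of hairpins, and the 15.1% given above is one of regions. Values follow for 2 that are well known in epithelia, chosen after the list was seen. Mir148a, which is abundant in pancreas, had a region 460 bp from its hairpin with 20.1 in untreated, 5.91 at day 7 and 25.5 at day 28. The nearest day 1 peak was only 488 bp from that region. Mir200b, of the family that maintains epithelial character, had a region 338 bp from its hairpin with 6.76, 4.30 and 11.6, and 1460 bp to the nearest day 1 peak. Their mature 3′ arms, with the seed (bases 2 to 8) in capitals, come from RefSeq.
mmu-miR-148a-3p: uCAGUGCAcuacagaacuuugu
mmu-miR-200b-3p: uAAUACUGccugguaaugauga
The seeds of the pair differ. For the Mir148a and the Mir200b region alike the day 7 fold was again the lowest of the 3.

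At the border of the rule the values met. The weakest single fold of any of the regions was 2.64, in the untreated list at Rc3h1. The next 9 had 2.80 in untreated, at Dner, Sh3bp4, Nav1, Ppm1h, Trim7, Tefm, Rhob, Flvcr2 and Kcnma1. A day 1 peak lay within 50 bp of 110 regions, and adjoined the one at Jade1. Others with a day 1 peak within 10 bp were at Plppr3, Vasp, Efna4, Chd2, Slc38a10, Rinl, Ube2o, Uck2 and Rptor. Just outside, 635 regions of all 4 lists had a day 1 fold under 3. The weakest of these, at 2.52, were at Efhd1, Plekha6, Lgr4, Slc6a6 and Wfdc1, and the next, at 2.68, at Sh3bp4, Ikbke, Ascl5, Nek2 and Nr2e1. The Nek2 region had folds of 24.9 in untreated, 2.68 at day 1, 5.64 at day 7 and 30.1 at day 28, so that a strong region could miss the rule by a faint day 1 peak.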

How the data were processed

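ATAC-seq peak lists of 4 samples were used, grouped by sample title. Per the submitters' processing notes the build was GRCm38 (mm10) and the tools included MACS2 2.1.0.20150731, deepTools, SAMtools, Bowtie2 2.2.6 and cutadapt. The sources used here do not state roles, options, read filters or any shift to the Tn5 cut site. The deposited columns are a score, the fold enrichment at the summit (a ratio of pileup to background), and the authors' −log10 p and −log10 q. The score was not used further. Taking the authors' fold as pileup plus 1 over background plus 1 made 100% of pileups whole within 0.05, which gave the backgrounds and the Poisson intervals. Read totals are not given.

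Peaks overlapping by at least 1 bp were merged in Python 3.11.15 with pandas 2.3.3; bedtools 2.31.1 gave the same 223972 regions, and the merging was tested on simulated data. A region's midpoint was assigned to the closest protein-coding gene span up to 50 kb away in RefSeq GRCm38.p6; all 359 genes of the 20 lists matched. Starts came from the RefSeq promoter table, and starts on chromosome 18 were not used here. Shares carry Clopper-Pearson 95% intervals (scipy 1.17.1), for counting error only. With 1 library per group no test was made. Genes were named by rule: the 10 strongest members in each list with a gene within 50 kb, and the 20 genes with most members. The rule also took the 10 with the highest share among at least 8 regions and the list genes with most members. The edges of the rule and the 5 longest runs were named as well. Members and lists were chosen with earlier results of these data known. The values of 1 list gene are not reported here.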

Additional observations from a re-analysis of the deposited data

How the results depend on the processing

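No paired analysis was possible because each group is 1 library. The count of 10681 regions stayed within 1.5 times under the 6 alternatives, from 8015 (no day 1 peak within 1 kb) to 12257 (untreated peaks without merging), and with a common enrichment floor of 2.95 in all lists it was 10888. The digestive enzyme share of 57.6% ranged from 49.5% to 63.8% over 8 alternatives and stayed within its counting interval. The shares of the acinar factor, unfolded protein, amino acid and duct lists were above that of all regions in each of the 8, with the duct share ranging from 15.3% to 48.1%. Over the other 19 lists, 138 of 152 alternative values stayed within the counting interval and 14 did not. Leaving out regions with a day 1 peak within 1 kb accounted for 7 of the 14: the acinar factor share became 29.2%, the unfolded protein share 22.1%, the duct share 15.3%, the secretagogue share 9.52%, the endocrine share 7.41%, the circadian share 5.84% and the ubiquitous share 4.08%, against 11.4% of all shared regions. Requiring a −log10 q of at least 5 in the 3 lists raised the median folds to 7.91 in untreated, 5.91 at day 7 and 10.2 at day 28, since the weakest regions leave. With the mean fold of a region's peaks the day 28 median was 8.23. Counting any overlap of a region with a gene in place of its midpoint put 61.0% inside genes. The E-box share was 89.8% for promoter windows that overlap a region by any base. Peak lists show presence over a threshold, so at this depth a missing day 1 peak is no measure of how far accessibility fell.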
